A study of Mus musculus with 8 samples.

Results

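Interferon-induced and antigen presentation genes were examined as a group of 51 named genes in RNA-Seq of mouse kidney tubuloids, the epithelial structures that grow in Matrigel from dissociated tubule fragments. The genes were chosen by symbol, and all 51 were found among the 24063 genes of the deposited tables. The 8 cultures came from kidneys of mice aged postnatal day 7 to 10, all of the genotype Pkd2fl/fl Pax8rtTA TetOCre mTmG, in which *Pax8*-driven rtTA allows doxycycline to switch on Cre. The labels of these cultures name no doxycycline, so the floxed *Pkd2* alleles were, as far as labelled, intact in both groups. The 4 GDNF cultures (numbers 6, 12, 17 and 22) had glial-derived neurotrophic factor in the medium for a pulse of 24 h, and the 4 control cultures (numbers 3, 7, 14 and 21) had the same growth factor medium without it. RNA was taken on culture day 7, days after the pulse had ended. The comparison therefore asks how these genes stood after a past GDNF pulse, not during it.

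Counts per culture totalled 72991721 to 97490625 over all transcripts. Library scaling was unequal: the TMM factor, which corrects for a few abundant RNAs taking a large share of a library, was 0.790 in control culture 3, 0.963 to 0.982 in the other control cultures and 1.07 to 1.11 in the GDNF cultures. Control culture 3 also had the largest share of counts in short transcripts, 42.3% in the 4139 genes with the shortest transcripts against 26.1% to 36.6% elsewhere, and the results that rest on it are given below with and without it. *Xist* RNA marked control cultures 3 and 7 and GDNF cultures 6 and 12, and Y-linked RNA marked the others, so both groups held each kind equally. Control culture 3 and GDNF culture 6 also held Y-linked RNA, at 1.502 and 6.46 TPM beside 12.5 and 57.4 TPM of *Xist*. The labels do not say whether the cultures came from separate mice, and p-values measure the spread between these cultures only.

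Interferons are secreted alarm proteins. Type I interferons bind the receptor of IFNAR1 and IFNAR2, and the resulting signal assembles a complex that holds STAT2 and IRF9 and binds the interferon-stimulated response element (ISRE). Interferon gamma binds IFNGR1 and IFNGR2, acts through the gamma-activated site (GAS) and induces IRF1, while IRF7 amplifies the type I response. The induced genes include sensors of viral RNA, proteins that block viral entry or translation, GTPases that attack intracellular vacuoles, and the machinery that loads peptides on MHC class I. Tubular epithelial cells carry class I molecules at rest and raise them when interferon gamma is present.

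The letters that interferon-driven factors read were searched first, because they tie many of these genes together independently of their level. RefSeq windows (GRCm38.p6) of 250 bases before to 50 bases after an annotated start were found for 42 of the 51 genes. ISRE-like letters, GAAANNGAAA on either strand, occurred in 19 of these 42 genes (45.2%), against 3.99% of 27025 genes with a window. GAS-like letters, TTCNNNGAA, which read the same on both strands, occurred in 13 of 42 (31.0%) against 9.55%. A match of letters describes the window and does not show that a factor binds there. All 5 GTPase genes with a window held ISRE-like letters, as did both RNA sensor genes, 7 of 17 antiviral effectors, 2 of 6 class I genes and none (0) of the 4 receptor genes.
Stretches from the windows of 6 genes are shown because their RNA levels are described below. ISRE-like letters are in capitals and each stretch runs 5′ to 3′ on the gene's strand. The *Ifit3* stretch lies before the annotated start of its window but inside the gene's span given below, which begins at an earlier start.
*Ifit3*, chr19:34583353-34583436, plus strand: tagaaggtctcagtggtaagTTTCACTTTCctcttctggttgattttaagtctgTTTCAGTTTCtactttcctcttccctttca
*Ifit1*, chr19:34640765-34640833, plus strand: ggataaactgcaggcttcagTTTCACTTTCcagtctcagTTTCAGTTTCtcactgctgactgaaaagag
*Isg15*, chr4:156200855-156200916, minus strand: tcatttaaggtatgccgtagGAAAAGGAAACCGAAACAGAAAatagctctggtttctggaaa
*Bst2*, chr8:71537567-71537622, minus strand: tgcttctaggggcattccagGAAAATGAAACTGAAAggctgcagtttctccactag
*B2m*, chr2:122147528-122147577, plus strand: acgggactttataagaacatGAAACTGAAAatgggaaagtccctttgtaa
*Gbp2*, chr3:142620584-142620633, plus strand: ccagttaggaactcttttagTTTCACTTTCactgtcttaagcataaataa

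The group spanned a wide range of level per transcript length. In the authors' TPM of each gene's main transcript (the transcript with the highest mean count), *Ifitm3*, which hinders viral fusion at membranes, was the most abundant member, with a mean of 392 TPM over the 8 cultures. *B2m*, the light chain shared by class I molecules, followed at 202 TPM. The interferon gamma receptor chains came next, *Ifngr2* at 86.0 TPM and *Ifngr1* at 55.9 TPM, then the class I heavy chain *H2-D1* at 52.3 TPM and *Ifitm1*, a relative of *Ifitm3*, at 52.1 TPM. At the other end, *Mx1* was detected only in GDNF culture 6, at 0.0971 CPM (counts scaled by library size), and was at 0 in the other 7 cultures. *Rsad2*, *Mx2*, *Nlrc5* and *Trim30a* had means between 0.179 and 0.212 TPM. *Ifit1* and *Oas1a* had means of 0.322 and 0.817 TPM.

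**Figure D1:**
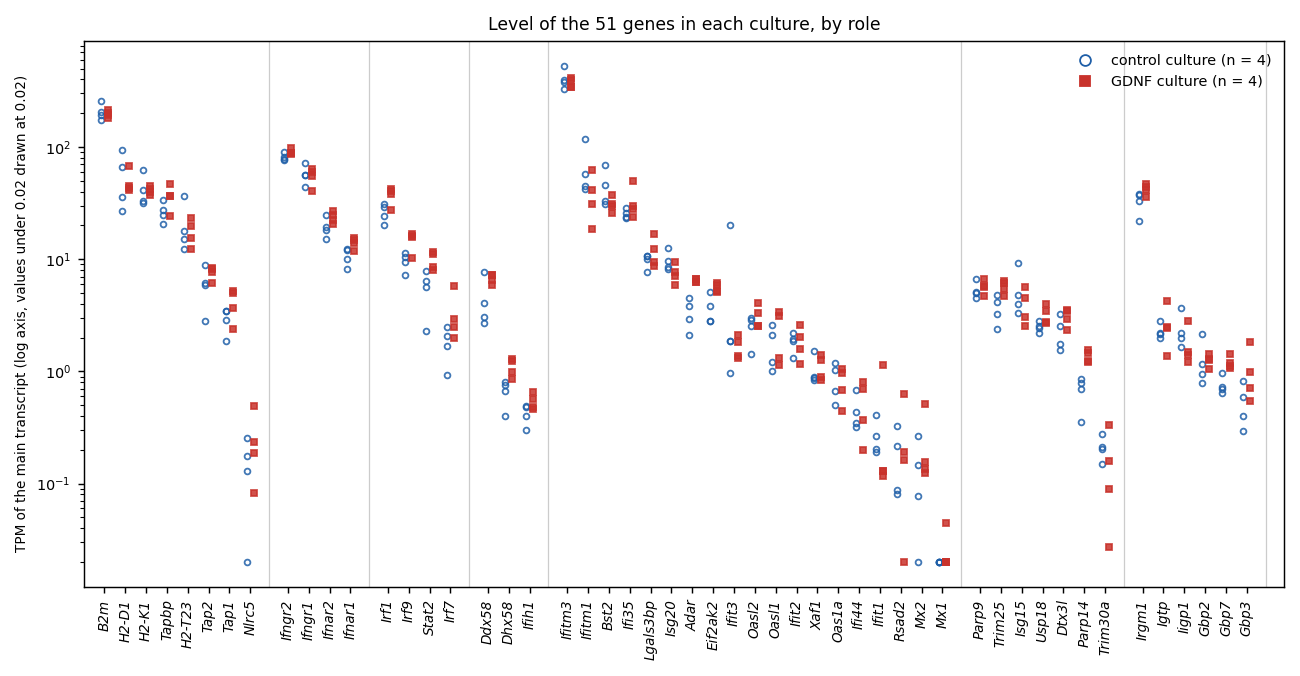
TPM of the main transcript (log axis) of each of the 51 genes in every culture, grouped by role and ordered by mean within a role; open circles are the 4 control cultures and filled squares the 4 GDNF cultures. *Ifitm3* and *B2m* are at the top and *Mx1* is above 0 in 1 culture only, and *Ifit3* has a single control culture far above the other 7 cultures.

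No member passed an adjusted p of 0.05 in edgeR's quasi-likelihood test of GDNF against control (0 of 50 tested, against 0.0% of all 16557 genes tested), and the smallest adjusted p of a member was 0.167. *Mx1* was too low to be tested. At an unadjusted p of 0.05, 2 members were higher after GDNF, *Adar* and *Parp14*, where 9.25% of all genes were. At the same level 7 members were lower, *Isg20*, *B2m*, *Ifitm3*, *Ifitm1*, *Bst2*, *Iigp1* and *Ifit3*, where 12.9% of all genes were. In either direction that made 9 of 50, against 22.1% of all genes, so the share of members was not above the background. The median log2 fold change (GDNF minus control) was -0.05 over the members and 0.03 over all genes tested. Of the 50 members, 31 were below 0 and 19 above, where 7866 of all 16557 genes tested were below 0 and 8691 above.

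DESeq2 called 6 members at an adjusted p of 0.05: *Adar* was higher (background 1.7% of the 11413 genes with an adjusted p), and *B2m*, *Bst2*, *Ifitm1*, *Ifitm3* and *Isg20* were lower (background 8.88%). In 20 of the tested members, *Ifit3* and *Isg15* among them, DESeq2 gave no adjusted p. Without control culture 3, DESeq2 called 2 members, *B2m* and *Ifitm1*, both lower (background 4.67%). The groups did not overlap in CPM in 2 members that were higher after GDNF, *Adar* and *Parp14* (background 6.99%), and in 4 that were lower, *B2m*, *Ifngr2*, *Isg20* and *Ifitm3* (background 6.26%).

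The scale of these differences depends on how libraries were scaled. Fitted with library size only, all genes shifted upwards by a median of 0.22 on the log2 scale, the members' median was 0.19 against 0.25 for all genes, and 5 members were higher (background 19.9%) and 4 lower (background 5.13%) at an unadjusted p of 0.05. On the deposited TPM scale the shift was larger, with medians of 0.30 for the members and 0.41 for all genes, in mean log2(TPM + 0.1). No member was then lower in every GDNF culture than in every control culture (0 of 50, background 0.61%), and 6 were higher (background 20.6%). These 6 were *Stat2*, *Dhx58*, *Eif2ak2*, *Adar*, *Parp14* and *Gbp7*. *B2m* was -0.06 on the TPM scale, and 0.47 below the median of all genes. The differences below are on the TMM scale, relative to the bulk of genes. *B2m* and *Adar* overlap *Patl2* and *Chrnb2* in the RefSeq annotation, and the strand setting of the counts is not given in the sources used here.

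**Figure D2:**
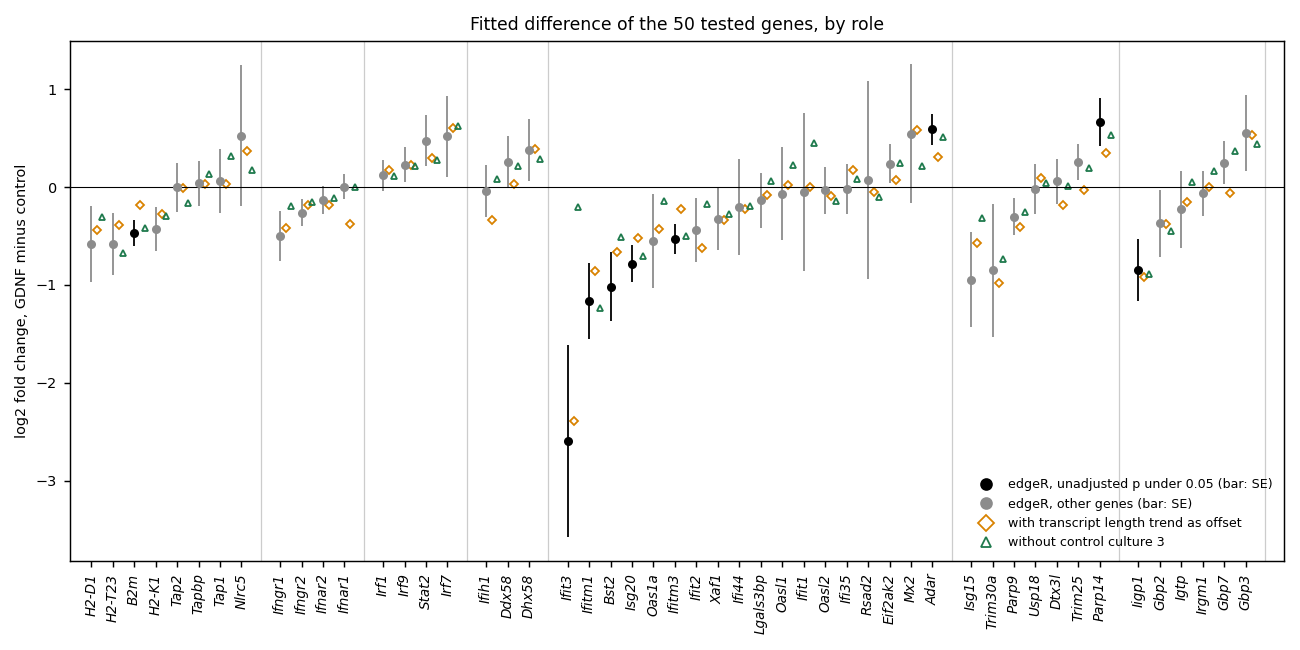
Fitted log2 fold change (GDNF minus control, TMM scale) of the 50 tested genes by role; circles with bars are edgeR estimates with their SE, black where the unadjusted p is under 0.05, diamonds the fit with a transcript length trend and triangles the fit without control culture 3. The 4 transcription factors lie above 0 and most antiviral effectors below it, and *Ifit3* moves from -2.60 to -0.20 when control culture 3 is left out.

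The transcription factors of the response all had fold changes above 0, and none (0 of 4) had an unadjusted p under 0.05 in the main edgeR fit. *Irf1*, a factor that interferon gamma induces, was at 93.6, 101, 83.3 and 101 CPM in control cultures 3, 7, 14 and 21 and at 113, 116, 76.2 and 107 CPM in GDNF cultures 6, 12, 17 and 22. GDNF culture 17 was the lowest of all 8 and the other GDNF cultures were the 3 highest. The log2 fold change was 0.12 ± 0.16 (SE), and 0.24 without GDNF culture 17. *Irf7*, the amplifier of the type I response, was at 7.88, 3.10, 8.47 and 6.57 CPM in the controls and at 17.1, 6.89, 8.14 and 5.19 CPM after GDNF. Its log2 fold change of 0.52 ± 0.41 (SE) fell to 0.05 when GDNF culture 6, the highest, was left out.

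*Irf9*, the DNA-binding subunit of the ISRE-binding complex, was at 47.2, 53.9, 49.4 and 41.5 CPM in the controls and at 65.6, 59.8, 39.3 and 60.5 CPM after GDNF. As for *Irf1*, GDNF culture 17 was the lowest and the other GDNF cultures the highest, and the log2 fold change was 0.23 ± 0.18 (SE). For *Irf9* it was 0.37 without GDNF culture 17 and 0.45 with library size only, at unadjusted edgeR p-values of 0.0382 and 0.0415. *Stat2*, its signal-receiving partner, was at 8.55, 15.6, 21.6 and 16.1 CPM in the controls and at 18.8, 25.6, 18.8 and 22.9 CPM after GDNF, with control culture 14 inside the GDNF range. The log2 fold change of *Stat2* was 0.48 ± 0.26 (SE), with an adjusted p of 0.297 by edgeR. It was 0.28 without control culture 3, 0.68 without control culture 14 (unadjusted edgeR p of 0.0209) and 0.13 with the transcript length trend and without control culture 3. These 4 fold changes kept their sign in every alternative fit.

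The interferon receptor genes were expressed in every culture, and none (0 of 4) had an unadjusted p under 0.05 in the main edgeR fit. *Ifnar1* was at 44.3 to 53.0 CPM in the controls and 44.1 to 51.7 CPM after GDNF, a log2 fold change of 0.01 ± 0.12 (SE), which was -0.37 with the transcript length trend. *Ifnar2* ranged from 62.2 to 84.5 CPM in the controls and from 59.9 to 73.0 CPM after GDNF. The binding chain *Ifngr1* was at 129, 73.4, 57.7 and 68.1 CPM in the controls and at 67.9, 66.9, 42.7 and 54.5 CPM after GDNF. Control culture 3 stood well above the rest, and without it the log2 fold change of *Ifngr1* went from -0.50 to -0.19. It was -0.48 with the kind of culture (*Xist* or Y-linked RNA) as a term and -0.63 without control culture 14, at unadjusted edgeR p-values of 0.0337 and 0.0323. *Ifngr2*, the accessory chain, was at 138, 104, 99.3 and 108 CPM in the controls and at 98.1, 89.1, 92.0 and 96.2 CPM after GDNF. Its groups did not overlap, though by a narrow gap between 98.1 and 99.3 CPM, and the log2 fold change was -0.26 ± 0.14 (SE, edgeR adjusted p = 0.292), or -0.15 without control culture 3.

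Among the class I genes, *B2m* (chromosome 2, 122147687 to 122153082 in GRCm38) was at 129, 102, 110 and 127 CPM in control cultures 3, 7, 14 and 21 and at 87.9, 77.8, 86.2 and 87.3 CPM after GDNF. Every GDNF culture was below every control, with means of 117 ± 13.0 and 84.8 ± 4.71 CPM (SD, n = 4 each). The log2 fold change was -0.47 ± 0.13 (SE; edgeR unadjusted p = 0.00499, adjusted p = 0.167; DESeq2 adjusted p = 0.0277), and -0.18 with the transcript length trend. The heavy chains that pair with it overlapped between the groups, and as close relatives they can share reads. *H2-K1* was at 58.9, 32.3, 34.0 and 59.0 CPM in the controls and at 37.3, 37.2, 33.0 and 29.1 CPM after GDNF, so control cultures 3 and 21 stood apart from the other 6. *H2-D1* showed the same pair of high controls, with 98.2, 38.6, 28.8 and 93.5 CPM, against 63.4, 39.1, 35.6 and 35.1 CPM after GDNF. Their log2 fold changes were -0.43 ± 0.23 and -0.58 ± 0.39 (SE), with edgeR adjusted p-values of 0.281 and 0.395. Without control culture 3 they were -0.29 and -0.31, and without control culture 14 they were -0.55 and -0.83, at unadjusted edgeR p-values of 0.0332 and 0.0308. Control cultures 3 and 21 also had the most epithelial marker RNA, a summed 1907 and 3176 TPM against 356 to 1291 TPM in the other 6 cultures, and its part in the class I values was not tested.

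Peptide loading genes had fold changes near 0. *Tap1* and *Tap2*, which carry peptides into the endoplasmic reticulum, and *Tapbp*, which bridges them to class I, had log2 fold changes of 0.06, -0.00241 and 0.04, each changing sign under at least 1 alternative fit. *Nlrc5*, the activator of class I promoters, was at 0.0969, 1.11, 0.555 and 0.702 CPM in the controls and at 1.84, 0.808, 0.288 and 0.619 CPM after GDNF. Its log2 fold change of 0.53 ± 0.72 (SE) became -0.11 without GDNF culture 6. *Nlrc5* was lowest in control culture 3, where *H2-D1* and *B2m* were highest. *H2-T23*, a non-classical class I gene, was at 30.2 CPM in control culture 14 and between 8.65 and 15.4 CPM in all other cultures.

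None (0 of 3) of the RNA sensors had an unadjusted p under 0.05 by edgeR, and their groups overlapped. *Ddx58*, which encodes RIG-I, was at 13.0, 12.6, 8.29 and 22.01 CPM in the controls and at 17.4, 18.0, 14.4 and 16.99 CPM after GDNF, where the controls spread on both sides of the GDNF range. The log2 fold change was 0.26 ± 0.27 (SE). *Dhx58*, a regulator of the RIG-I family, was at 0.831, 1.003, 1.20 and 1.06 CPM in the controls and at 1.66, 1.03, 1.20 and 1.42 CPM after GDNF, a log2 fold change of 0.38 ± 0.32 (SE). *Ifih1*, which encodes MDA5, lay between 2.04 and 3.82 CPM in all 8 cultures.

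Of the 18 antiviral effectors tested, 1 was higher and 5 were lower at an unadjusted p of 0.05 by edgeR, where 9.25% and 12.9% of all genes were. *Adar* (chromosome 3, 89714469 to 89753455), an enzyme that edits adenosine in double-stranded RNA, was at 31.8, 42.1, 32.2 and 46.2 CPM in the controls and at 59.6, 58.6, 59.4 and 52.3 CPM after GDNF. All GDNF cultures were above all controls, and the log2 fold change was 0.59 ± 0.16 (SE; edgeR unadjusted p = 0.00363, adjusted p = 0.167; DESeq2 adjusted p = 0.0342). It was 0.31 with the transcript length trend, at an unadjusted edgeR p of 0.0544.

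*Isg20* (chromosome 7, 78913396 to 78920396), an RNA exonuclease, was at 31.3, 21.5, 24.8 and 30.4 CPM in the controls and at 13.2, 19.7, 16.3 and 13.6 CPM after GDNF. The groups did not overlap. The log2 fold change of *Isg20* was -0.78 ± 0.19 (SE; edgeR unadjusted p = 0.00199, adjusted p = 0.167; DESeq2 adjusted p = 0.0202), and it stayed between -0.91 and -0.52 over all alternative fits. Its unadjusted p was the smallest of the 50 members.

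The interferon-induced transmembrane genes were lower as well. *Ifitm3* (chromosome 7, 141009590 to 141010744) was at 184, 159, 214 and 143 CPM in the controls and at 120, 112, 133 and 122 CPM after GDNF, with no overlap and a log2 fold change of -0.52 ± 0.15 (SE; edgeR unadjusted p = 0.00654, adjusted p = 0.167; DESeq2 adjusted p = 0.0335). *Ifitm1* was at 50.4, 49.9, 103 and 35.8 CPM in the controls and at 13.7, 21.8, 43.7 and 27.4 CPM after GDNF. GDNF culture 17 was inside the control range, and the log2 fold change was -1.16 ± 0.39 (SE; edgeR unadjusted p = 0.0141, adjusted p = 0.167; DESeq2 adjusted p = 0.0353). Without control culture 14, the highest, it was -0.77. With the transcript length trend the values of *Ifitm3* and *Ifitm1* were -0.22 and -0.85, with unadjusted edgeR p-values of 0.211 and 0.0783. Both genes lie in a family of close relatives on chromosome 7, and how shared reads were assigned is not given in the sources used here.

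*Ifit3* and *Bst2* fall outside the rule that chose the genes with values per culture, and are given because their values were seen to rest on control culture 3. *Ifit3* (chromosome 19, 34583119 to 34588982), a partner of the RNA-binding IFIT1, was at 34.3 CPM in control culture 3 and between 1.20 and 2.32 CPM in the other 7 cultures. Its log2 fold change was -2.60 ± 0.98 (SE; edgeR unadjusted p = 0.0244, adjusted p = 0.184), and -0.20 without that culture (unadjusted p = 0.568). *Bst2*, which encodes tetherin and holds budding virus at the cell surface, was at 45.6, 14.8, 15.8 and 20.5 CPM in the controls and at 15.2, 11.9, 9.83 and 10.8 CPM after GDNF. The log2 fold change was -1.02 ± 0.35 (SE), and -0.51 without control culture 3, at an unadjusted edgeR p of 0.0349. Control culture 3 was also the highest for *Ifit2* (7.41 CPM against 2.44 to 5.13 elsewhere) and *Oas1a* (1.94 against 0.396 to 1.12).

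*Ifit1*, whose product binds viral RNA ends, had its highest value in another culture than its neighbour *Ifit3*. It was at 0.928 CPM in control culture 3 and 0.313 to 0.405 in the other controls, but its highest value was 1.41 CPM in GDNF culture 22, with the other GDNF cultures at 0.154 to 0.183. *Mx2* and *Rsad2* were also highest in GDNF culture 22, at 1.16 and 1.13 CPM, and *Mx2* was lowest in control culture 3, at 0.0831. The remaining effectors had unadjusted edgeR p-values above 0.20, with log2 fold changes from -0.55 (*Oas1a*) to 0.55 (*Mx2*). *Ifit1*, *Ifit3* and the OAS genes have close copies, of which *Ifit3b* and *Ifit1bl1* had no row in the tables used here, so their counts are uncertain.

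Among ISG15 and the ubiquitin and ADP-ribose enzymes, *Parp14* (chromosome 16, 35831892 to 35871518), an ADP-ribosyltransferase, was at 2.22, 3.56, 3.14 and 3.61 CPM in the controls and at 5.72, 5.59, 4.38 and 4.25 CPM after GDNF. The groups did not overlap, and the log2 fold change was 0.67 ± 0.24 (SE; edgeR unadjusted p = 0.0206, adjusted p = 0.177). With the transcript length trend it was 0.35, at an unadjusted edgeR p of 0.164. *Isg15*, the ubiquitin-like modifier, was at 5.98, 1.87, 2.27 and 1.46 CPM in the controls and at 2.28, 1.16, 0.965 and 1.61 CPM after GDNF. Control culture 3 was the highest again, and the log2 fold change of -0.95 ± 0.49 (SE, edgeR adjusted p = 0.274) became -0.32 without it.

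*Usp18*, the protease that removes ISG15, was at 2.62 to 3.35 CPM in the controls and 2.27 to 3.76 after GDNF. *Parp9* and *Dtx3l*, which encode partners and overlap in the genome, had log2 fold changes of -0.30 ± 0.19 and 0.06 ± 0.23 (SE). *Parp9* was at 13.7, 14.8, 11.3 and 10.4 CPM in the controls and at 10.8, 11.8, 8.34 and 9.65 CPM after GDNF, and the ranges overlapped. *Trim25*, the ubiquitin ligase that activates RIG-I, was at 11.3, 11.3, 16.7 and 13.3 CPM in the controls and at 13.9, 15.1, 17.2 and 16.8 CPM after GDNF. Its log2 fold change of 0.26 ± 0.18 (SE) was -0.03 with the transcript length trend.

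Of the GTPases, *Iigp1* alone had an unadjusted p under 0.05 by edgeR (1 of 6 tested). It was lower, where 12.9% of all genes were. *Iigp1*, an immunity-related GTPase of vacuole membranes, was at 8.89, 8.54, 14.2 and 7.20 CPM in the controls and at 5.03, 3.81, 8.68 and 4.10 CPM after GDNF. GDNF culture 17 lay inside the control range, and the log2 fold change was -0.85 ± 0.32 (SE; edgeR unadjusted p = 0.0242, adjusted p = 0.184), or -0.92 with the transcript length trend. *Gbp3*, a guanylate-binding protein gene, was at 2.11, 2.07, 4.24 and 2.77 CPM in the controls and at 2.45, 4.00, 2.92 and 7.06 CPM after GDNF, with GDNF culture 22 above the rest and a log2 fold change of 0.55 ± 0.39 (SE), or 0.16 without that culture. *Irgm1*, a regulator of the immunity-related GTPases and the most abundant of the 6 genes, was at 70.9, 45.5, 30.5 and 49.01 CPM in the controls and at 52.3, 46.6, 39.6 and 48.9 CPM after GDNF. *Igtp* was at 4.87, 2.80, 2.69 and 2.33 CPM in the controls and at 4.61, 2.50, 1.38 and 2.35 CPM after GDNF. The log2 fold changes of *Irgm1* and *Igtp*, -0.06 and -0.23, both turned above 0 with library size only and without control culture 3.

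**Figure D3:**
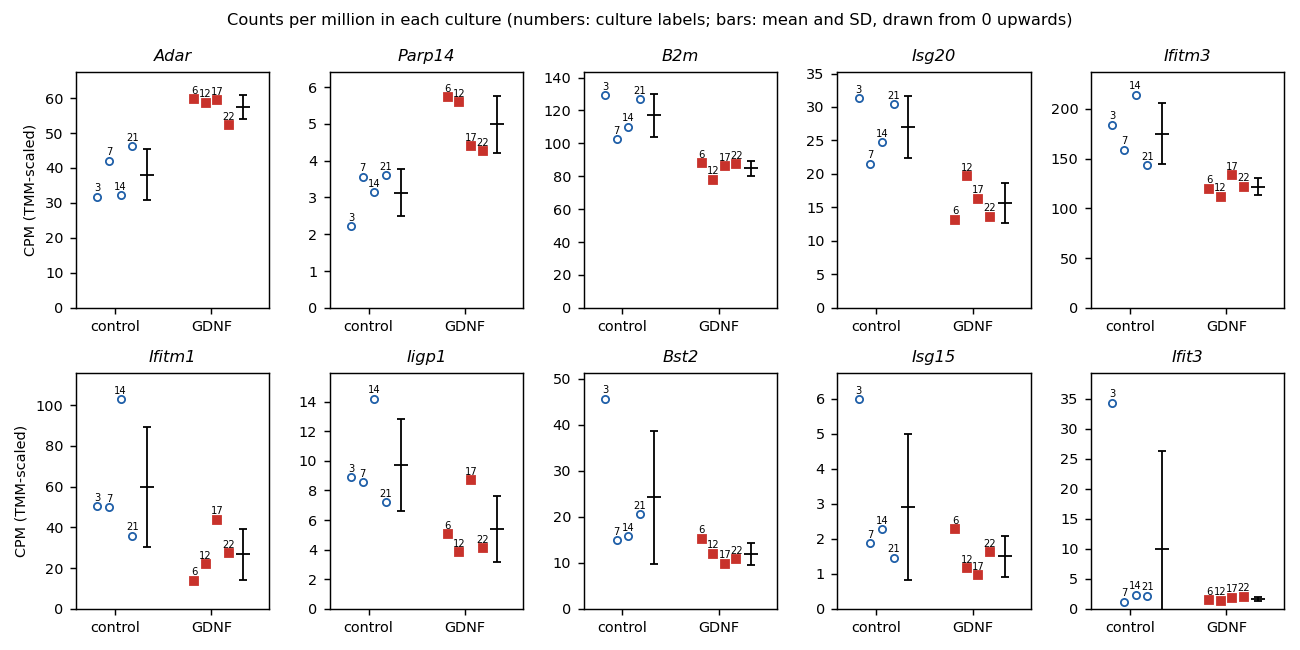
CPM on the TMM scale of 10 genes in each culture, with culture numbers beside the points and the mean and SD of each group (n = 4) as bars. *Adar* and *Parp14* are higher in every GDNF culture and *B2m*, *Isg20* and *Ifitm3* lower in every GDNF culture, while *Ifit3*, *Isg15* and *Bst2* have their highest value in control culture 3.

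Control culture 3 held the highest CPM in 17 of the 50 members tested, which is 34.0%, against 26.3% of all genes. GDNF culture 6 was highest in 10 members (of 50, against 14.4% of all genes), among them *Irf7*, *Irf9*, *Nlrc5*, *Ifi35* and *Usp18*. Left without control culture 3, the fit had 2 members higher (background 5.96%) and 6 lower (background 8.23%) at an unadjusted p of 0.05, and *Ifit3* was the member lost. Members with ISRE-like letters in their window were highest in control culture 3 in 9 of 19, and members with a window but without the letters in 8 of 23. The median log2 fold change was -0.23 in the 19 and -0.06 in the 23, and -0.10 and 0.0043 without control culture 3. With the transcript length trend the medians were -0.1785 and -0.1819, so the members with the letters were not lower in that fit.

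Transcript length moved with the differences. Over all genes tested, the median log2 fold change was -0.31 in the 4139 genes with the shortest main transcripts (up to 1631 bases) and 0.30 in the 4139 with the longest (from 4106 bases). All 8 members in the shortest bin were below 0, with a median of -0.68, and 5 of them were lower at an unadjusted p of 0.05: *B2m*, *Isg20*, *Bst2*, *Ifitm1* and *Ifitm3*. In the longest bin, 1 of 11 members was below 0, the median was 0.26, and both members that were higher at that level, *Adar* and *Parp14*, were there. The shares of all genes within each bin that were below 0 or at that level are not given here. Whether these counts of members are unusual for their bin is therefore not known. Across genes, which are not independent, Pearson's r between log2 length and log2 fold change was 0.54 over the 50 members and 0.21 over all genes.

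With a spline trend over transcript length as an offset per culture, 0 members were higher at an unadjusted p of 0.05 by edgeR (background 5.62%) and 5 were lower (background 12%): *Isg20*, *Bst2*, *Iigp1*, *Ifit3* and the receptor gene *Ifnar1*. None (0) passed an adjusted p of 0.05 in that fit. With the trend and without control culture 3, 2 members, *Isg20* and *Iigp1*, were lower at that unadjusted level (background 7.05%). Whether length or the GDNF pulse accounts for the share of a difference that moves with length cannot be told apart here.

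**Figure D4:**
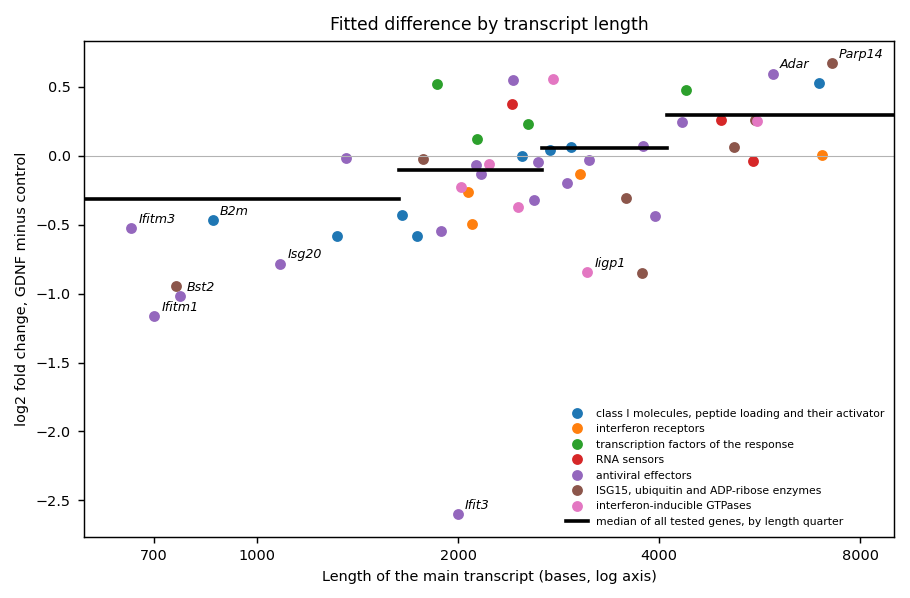
Log2 fold change (GDNF minus control) of the 50 tested genes against the length of the main transcript (log axis), coloured by role, with the names of the 9 genes at an unadjusted p under 0.05; black lines are the medians of all tested genes in 4 length bins of near-equal size. The short genes *Ifitm3*, *Ifitm1*, *Bst2*, *B2m* and *Isg20* lie below 0 and the long genes *Adar* and *Parp14* above it, on the same side of 0 as the black line of their bin and farther from 0.

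Induced genes were then compared with their regulators across the 8 cultures, in 8 pairs of a regulator and a known target or partner. Only *Irf1* and *Tap1* had a p-value under 0.05 before adjustment. Pearson's r was 0.73 (exact permutation test, two-sided, p = 0.0398, adjusted over the 8 pairs p = 0.318) and Spearman's rho was 0.50 (exact permutation p = 0.216, adjusted p = 0.801). The relation rested on the cultures with the least *Irf1*, GDNF culture 17 and control culture 14, since r was 0.04 over the other 6. With group means removed, r was 0.75. An r at least as high with *Irf1* was found for 3.18% of all genes.

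The other 7 pairs had r between -0.45 and 0.38, with exact permutation p-values from 0.271 to 0.971 and adjusted values from 0.553 to 0.971. *Irf7* had r = -0.34 with *Ifit1* and 0.17 with *Isg15*, *Irf9* had -0.014 with *Usp18* and 0.38 with *Stat2*, and *Irf1* had -0.39 with *Gbp2*. *Nlrc5* had r = -0.43 with *H2-K1* and -0.45 with *B2m*, which became 0.14 and 0.20 without GDNF culture 6 and control culture 3. Spearman's rho for these 7 pairs lay between -0.38 and 0.36, with exact permutation p-values of 0.360 to 0.977 and adjusted values of 0.801 to 0.977. Within the 4 cultures of each kind, *Irf9* and *Stat2* had r = 0.84 (*Xist*) and 0.83 (Y-linked RNA), and *Irf1* and *Tap1* had 0.035 and 0.89. The other 6 pairs lay between -0.92 and 0.31 with *Xist* and between -0.90 and 0.64 with Y-linked RNA. These values are a description with no test, since 4 cultures are fewer than the 6 taken as the least for a test.

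The members were also ranked among all genes by how closely their log2 CPM followed *Irf1*, *Irf7* or *Irf9* over the 8 cultures. The nearest member to *Irf1* was *Dtx3l* (r = 0.85, rank 114 of all genes), the nearest to *Irf7* was *Ifi35* (r = 0.68, rank 318), and the nearest to *Irf9* was *Irf1* itself (r = 0.78, rank 194). An r above 0.5 with *Irf1* was found for 18.4% of members and 13.1% of all genes, with *Irf7* for 4.08% and 6.58%, and with *Irf9* for 8.16% and 11.5%. The cultures share scaling and depth, so these values describe the 8 libraries.

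**Figure D5:**
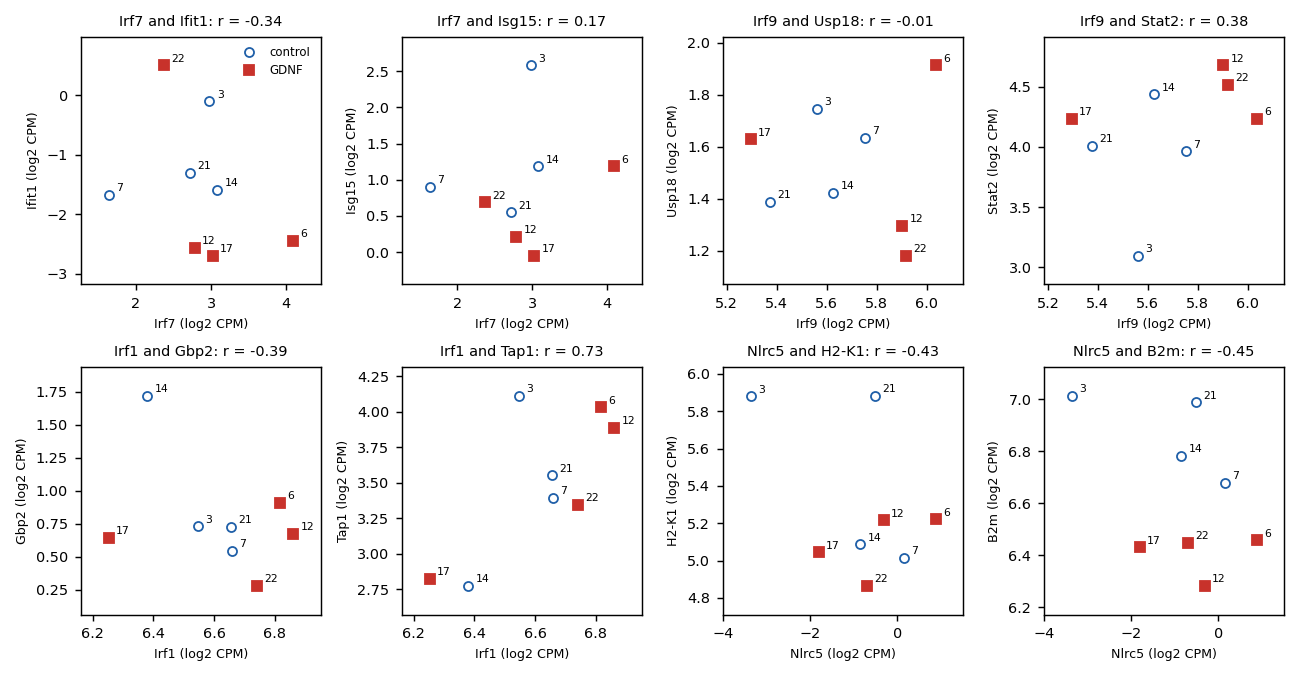
Log2 CPM of each target against its regulator in the 8 cultures, with culture numbers, open circles for control and filled squares for GDNF; r in each title is Pearson's, from log2 CPM with a prior count of 1. *Irf1* and *Tap1* rise together mainly through GDNF culture 17 and control culture 14 at the low end, and the other 7 pairs show no such line.

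Around the group, the interferons themselves were at or near the detection floor. Of 19 ligand genes, 12 had 0 counts in all 8 cultures, *Ifnb1* and *Ifng* among them, and a count of 0 allows up to 3 counts in a library. Only *Ifnk*, a keratinocyte interferon, passed the filter on low counts, with at most 35 counts in a culture. Of 90 other pathway genes tested, 0 passed an adjusted p of 0.05 by edgeR. At an unadjusted p of 0.05, 4 were higher and 8 lower, where 9.25% and 12.9% of all genes were. DESeq2 called 3 of the 51 with an adjusted p, all lower (background 8.88%), *Pdia3*, *Calr* and *Ifitm2*. *Pdia3* and *Calr*, endoplasmic reticulum chaperones that also serve class I folding, had log2 fold changes of -0.65 ± 0.17 and -0.53 ± 0.18 (SE), with no overlap between the groups.

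The class I and immunoproteasome list held 5 of the 8 lower genes (5 of 22 tested, against 12.9% of all genes, with a median log2 fold change of -0.42). Besides *Pdia3* and *Calr* these were the proteasome genes *Psmb8*, *Psmb10* and *Psme2*, at -0.69, -0.43 and -0.56. *Psme2*, a subunit of the interferon-inducible proteasome activator, was at 516, 375, 321 and 264 CPM in the controls and at 307, 253, 222 and 222 CPM after GDNF, where the ranges overlapped and control culture 3 was the highest. With the length trend, the list had a median of -0.27 and 3 lower genes (background 12%), and without control culture 3 it had 2 (background 8.23%). *H2-Ke6*, a gene of the MHC region that makes a dehydrogenase and presents no antigen, was the 1 higher gene of the list, at 0.43 ± 0.19 (SE).

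The signal transducers gave 1 gene in each direction of 11 tested at an unadjusted p of 0.05 by edgeR. Of all genes, 9.25% were higher and 12.9% lower at that level. *Tyk2*, a Janus kinase of interferon signalling, had a log2 fold change of 0.51 ± 0.19 (SE), and *Il10rb*, a chain of the interferon lambda receptor, -0.43 ± 0.16 (SE). Among 38 other interferon-induced genes tested, *Gbp9* (0.70) and *Trim21* (0.38) were higher and *Ifitm2* (-0.67) and *Slfn2* (-0.79) lower, with a median of 0.03. These 2 genes in each direction of 38 stand beside the same shares of all genes. Neither the 12 sensors and adaptors nor the 6 class II genes tested held a gene at that level by edgeR (0 each), and the class II activator *Ciita* was between 0.712 and 2.68 CPM in all cultures.

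The cultures carried kidney epithelial markers throughout, with all 7 of 7 above a mean of 1 TPM and a summed level of 356 to 3176 TPM in the controls and 899 to 1291 TPM after GDNF. In bulk RNA, a change in the number of cells of a type and a change in RNA per cell cannot be told apart. Macrophage and leukocyte markers were low, with 3 of the 11 found in the tables at a mean of 1 TPM or more, a summed level of 7.65 to 11.7 TPM in the controls and 7.75 to 52.3 TPM after GDNF, and *Cd3e* at 0 in all cultures. GDNF culture 17, the highest at 52.3 TPM, mostly through *Lyz2* at 35.0 TPM, was the highest culture for 1 of 50 members, *Trim25* (11.1% of all genes), and the lowest for 14 of 50 (7.07% of all genes). Endothelial markers summed to 14.2 to 40.2 TPM in the controls and 28.3 to 55.8 TPM after GDNF, with 2 of 6 at a mean of 1 TPM or more. Stromal markers, all 6 detected, summed to 154 to 1234 TPM in the controls and 196 to 1026 TPM after GDNF. Control culture 14 had the highest summed stromal and the lowest summed epithelial marker RNA. Of the stromal markers, *Col1a1*, *Col1a2* and *Pdgfrb* were nevertheless higher in GDNF cultures 12 and 17. Control culture 14 was the highest culture for 9 of 50 members (11.7% of all genes). These were *Ifitm1*, *Ifitm3*, *Iigp1*, *H2-T23*, *Gbp2*, *Tap2*, *Ifnar1*, *Ifnar2* and *Xaf1*. The part of cell makeup in these values was not tested.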

How the data were processed

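Tubuloid RNA was sequenced from SMART-Seq v4 libraries (4 GDNF, 4 control cultures). The authors aligned reads with STAR to mm10 (GRCm38), and the submitters' processing notes also name featureCounts and DESeq2, versions not given in the sources used here. The deposited counts are whole numbers for 33068 RefSeq transcripts, unnormalized. FPKM, divided by the authors by transcript length and total, served only to recover lengths. TPM as deposited served for levels. The sequencing lane of each culture is not given in the sources used here.

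Counts were summed per symbol. Reads shared by transcripts of a gene can enter the sum more than once. edgeR 4.0.16 in R 4.3.3 (filterByExpr, TMM, glmQLFit, glmQLFTest) tested 16557 genes, with Benjamini-Hochberg adjustment. SE is the absolute log2 fold change over the square root of F. Alternatives were DESeq2 1.42.0, limma-voom (limma 3.58.1), other scalings and filters, the main transcript only, kind of culture, a length spline (5 degrees of freedom) and leaving out each culture. The plain edgeR, DESeq2 and limma-voom fits were also run on simulated counts, and the other steps were not. Correlations used log2 CPM (prior count 1) and all 40320 pairings. The other values were computed with pandas 2.3.3 and NumPy 2.4.6 under Python 3.11.15, with ranks from SciPy 1.17.1 and figures from matplotlib 3.10.9.

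Depth, 72991721 to 97490625 counts, makes counting error small for all but the lowest genes. The members and lists were chosen with earlier results of these data known. Values per culture are given for *Irf1*, *Irf7*, *Irf9*, *Stat2* and *Nlrc5* and, in each role, for the 2 members with the smallest p and the 2 with the highest TPM. Coordinates are RefSeq's for GRCm38.p6. Promoter windows were matched by symbol. A gene of the pathway is not reported here.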

Additional observations from a re-analysis of the deposited data

Results flagged for a closer look

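In groups of 4 cultures, 9 values of the members stood apart from the other cultures of their group by Dixon's gap criterion at 95%, out of 100 groups examined, where chance gives about 5. *Ifit3* was at 34.3 CPM in control culture 3, against 1.20 to 2.32 CPM in the other controls. *Ifit1* was at 0.928 CPM in the same culture, against 0.313 to 0.405, and at 1.41 CPM in GDNF culture 22, against 0.154 to 0.183. *Mx2* was at 1.16 CPM in GDNF culture 22, against 0.324 to 0.379. *H2-T23* was at 30.2 CPM in control culture 14, against 12.3 to 14.02, and *Gbp2* was at 3.30 CPM in that culture, against 1.46 to 1.66. *H2-D1* was at 63.4 CPM in GDNF culture 6, against 35.1 to 39.1. Apart on the low side were *B2m* at 77.8 CPM in GDNF culture 12, against 86.2 to 87.9, and *Adar* at 52.3 CPM in GDNF culture 22, against 58.6 to 59.6.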

How the results depend on the processing

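No paired analysis was possible because the groups share no culture numbers. No member passed an adjusted p of 0.05 under edgeR or limma-voom in any alternative run, at 0 of the members in each. DESeq2 called 6 members, 5 without independent filtering and 2 without control culture 3, and 3, 1 and 1 of the other pathway genes, where edgeR called 0. DESeq2 without independent filtering, the DESeq2 and length fits without control culture 3, and the TPM scale were chosen after seeing the data. The median log2 fold change of the members was 0.19 with library size only and 0.30 on the TPM scale, and between -0.14 and 0.01 with each culture left out. Of 50 members, 10 were above 0 and 19 below 0 in every alternative fit that tested them, and 21 changed sign in at least 1. The number of such fits was 20 or 21 for each member, since a stricter filter on low counts left some members out. The TPM scale is not among these fits, and the share of all genes that kept a sign is not given here. Among the genes with values per culture, *Nlrc5* reversed to -0.065 with limma-voom and to -0.11 to 0.97 with cultures left out. *Trim25* reversed to -0.028 with the length trend and -0.0058 with the trend and without control culture 3. *Irgm1* reversed to 0.040 with limma-voom, 0.18 with library size only, 0.00080 with the length trend, 0.18 with the trend and without control culture 3, and 0.13 with DESeq2 without that culture, and ranged from -0.23 to 0.17 with cultures left out. *Igtp* reversed to 0.026 with library size only, 0.061 with the trend and without control culture 3, and 0.014 with DESeq2 without that culture, and ranged from -0.61 to 0.055 with cultures left out. The cause of these changes was not tested. *Mx2*, *Nlrc5* and *Rsad2*, among the lowest genes, had SEs of 0.71, 0.72 and 1.02 on the log2 scale. *Ifit1* and *Trim30a* had SEs of 0.81 and 0.68. Small differences in these genes could therefore not be detected here.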
